A study of Mus musculus with 6 samples.

Results

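The cytosolic ribosomal protein genes are the genes of the proteins that, with the ribosomal RNAs, build the ribosome outside the mitochondria. They were taken by gene symbol, as every gene named Rpl or Rps with a number and at most a short suffix, together with Rpsa, Rplp0, Rplp1 and Rplp2. Rows named as pseudogenes, the Rps6k kinases and the mitochondrial Mrp genes were left out. This gave 86 of the 27179 genes counted, 53 for the large subunit and 33 for the small one. RefSeq annotates 2 of them, Rpl6l and Rps4l, as pseudogenes, although their symbols do not say so.

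Bulk RNA-seq of polyadenylated RNA compared CD34hi with CD34lo fibroblasts from the mammary gland of pubertal mice at 6 weeks of age, of the strain FVB/N in the labels and FVB/NJ in the methods. There were 3 pools of 2 mice, and both populations were sorted from each pool as lineage-negative, CD24-negative and Pdgfra-positive cells, which gave 6 libraries. The labels name no transgene or treatment for these animals. The comparison asks how fibroblasts rich in CD34, a surface sialomucin of stromal progenitor cells, differ from those poor in it.

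Each ribosome has a small subunit, which decodes the mRNA, and a large subunit, which joins the amino acids, and nearly every ribosomal protein is present once in each ribosome. Their mRNAs are abundant in all cells and start with an uninterrupted run of pyrimidines (the terminal oligopyrimidine or TOP tract), through which the kinase mTOR and the RNA-binding protein Larp1 set their translation and stability together. The mRNA levels measured here do not give the amount of protein made. The genome also carries many retrotransposed copies of these short mRNAs, and reads from a parent gene and its copies are hard to tell apart.

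The libraries held between 28764779 and 52402410 counts. Cd34 was at 2490, 2639 and 2584 CPM (counts scaled to a common library size) in CD34hi and at 476, 793 and 632 in CD34lo, in the order of the labels. Fibroblast genes were abundant in all libraries and mostly higher in CD34lo. Col1a1 was between 8387 and 11504 CPM in CD34hi and between 15957 and 18856 in CD34lo, and Pdgfra was between 637 and 922 and between 1036 and 1416. Of the 8 fibroblast genes listed, 5 were higher in CD34lo and 1, Pdpn, in CD34hi (edgeR). Of the defining markers of other cells, Ptprc of leukocytes was between 0.0221 and 0.36 CPM, Epcam of epithelium between 3.97 and 7.65, and Pecam1 of endothelium between 3.22 and 18.4. The populations differed in several such lists, too. The 10 genes known to respond to tissue dissociation, Fos and Hspa1a among them, summed to between 20932 and 25549 CPM in CD34hi and between 36030 and 49004 in CD34lo, and 7 of the 10 were higher in CD34lo. The 6 endothelial genes summed to between 534 and 692 CPM in CD34hi and between 49.5 and 80.0 in CD34lo. Most of this sum was Tek, at 473, 510 and 647 CPM in CD34hi, whereas Pecam1 was higher in CD34lo. Cell cycle genes (10 genes) summed to between 65.9 and 70.9 CPM in CD34hi and between 92.5 and 127 in CD34lo. Krt19 (56.8, 58.4 and 36.9 CPM in CD34hi, 7.17, 9.13 and 7.78 in CD34lo) and Cd3e (14.8, 16.0 and 13.9 against 4.22, 5.43 and 1.67) were higher in CD34hi. So were the sums of the epithelial, leukocyte, keratinocyte and Schwann cell lists. Of the 4 leukocyte genes tested, however, 1 was higher in CD34hi and 2, Cd79a and Lyz2, in CD34lo. Of the 5 Schwann cell genes, 1 was higher in CD34hi and 3 in CD34lo. Of the 7 pericyte and smooth muscle genes, 5 were higher in CD34lo, among them Myh11 (1.57, 2.90 and 2.65 CPM in CD34hi, 35.0, 36.6 and 32.4 in CD34lo) and Notch3 (6.06, 4.28 and 2.98 against 56.1, 43.5 and 29.6), and Kcnj8 was higher in CD34hi. Their sum was between 140 and 196 CPM in CD34hi, where most of it was Abcc9, and between 186 and 274 in CD34lo. Abcc9 was at 63.5, 151 and 104 CPM in CD34lo. The erythroid genes were under 6 CPM in every library. The part of these differences in the results on ribosomal protein genes was not tested. In bulk RNA a shift in the mixture of fibroblasts and a change of mRNA per cell cannot be told apart.

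The start sites of several ribosomal protein genes show the TOP tract. Of the 86 genes, 64 had a RefSeq promoter sequence (GRCm38.p6). In 14 of them (21.9%) a C followed by at least 4 C or T stood at the annotated start, against 3.01% of the 27025 genes with such a sequence. Allowing the C to lie within 5 bases of the annotated start raised these shares to 46.9% and 21.2%. Of the 14 genes, those with the 5 largest and the 4 smallest differences between CD34hi and CD34lo are shown, as 30 bases on the gene's strand, 10 before the annotated start and 20 from it on. Capitals mark the pyrimidine run that covers the start. The first 5 were higher in CD34hi, and the last 4 did not pass the test.
Rpl32l: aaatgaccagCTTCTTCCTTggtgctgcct
Rps15a: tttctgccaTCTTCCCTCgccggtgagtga
Rps6: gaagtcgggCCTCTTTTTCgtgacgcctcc
Rpl35: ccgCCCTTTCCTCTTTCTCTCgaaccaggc
Rps10: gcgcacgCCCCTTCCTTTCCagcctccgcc
Rplp2: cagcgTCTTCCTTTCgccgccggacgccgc
Rpl28: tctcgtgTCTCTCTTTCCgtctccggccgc
Rpl35a: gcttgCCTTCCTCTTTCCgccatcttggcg
Rps27: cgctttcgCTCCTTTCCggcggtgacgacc
These windows lie at chr10:20208429-20208458 (plus strand), chr7:118116128-118116157 (minus), chr4:86857348-86857377 (minus), chr2:39005112-39005141 (minus), chr17:27635225-27635254 (minus), chr7:141447641-141447670 (plus), chr7:4792955-4792984 (plus), chr16:33056472-33056501 (plus) and chr3:90213629-90213658 (minus), in the same order. The run was 10, 9, 10, 18, 13, 10, 11, 13 and 9 bases long. A tract at the start was thus found in genes at both ends of the range of differences, as counted on their own rows. Of these genes, Rpl32l is a copy of Rpl32. Rps27 has 94.1% of its family's counts on a copy, and its log2 fold change was 0.15 with that copy summed. The median log2 fold change was 0.24 over the 14 tested genes with such a C at the annotated start. It was 0.31 over the 48 tested genes with a promoter sequence but no such match exactly there. Some of the 48 still had a pyrimidine run over the annotated start, such as Rpl7a (21 bases) and Rpl27a (20 bases), where a T stood at that base. With the C within 5 bases, the medians were 0.24 over the 30 genes with it and 0.32 over the 32 without it.

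Ribosomal protein mRNAs took up a larger share of the library in CD34hi fibroblasts. The 86 genes held 1.40%, 1.35% and 1.24% of all counts in the CD34hi libraries of pools 1, 2 and 3, and 1.11%, 1.05% and 1.09% in the CD34lo libraries. Every CD34hi library was above every CD34lo library. The means were 1.33 ± 0.0824% and 1.08 ± 0.0298% (SD, n = 3), a ratio of 1.23. The two-sided exact permutation p was 0.1, the smallest that 3 libraries against 3 can give. Here and below, this test did not use the pairing of libraries by pool. The ratio was 1.26 in pool 1, 1.29 in pool 2 and 1.14 in pool 3.

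Both subunits shared this difference. Large subunit genes held 0.733 ± 0.0385% of counts in CD34hi and 0.611 ± 0.0213% in CD34lo, a ratio of 1.20 (SD, n = 3, exact permutation p = 0.1). Small subunit genes held 0.595 ± 0.0440% and 0.470 ± 0.0123%, a ratio of 1.27 (SD, n = 3, exact permutation p = 0.1). The 34 rows named as ribosomal pseudogenes moved in the same direction, at 0.302 ± 0.0230% and 0.235 ± 0.00728% (SD, n = 3). Genes encoded in the mitochondrial genome varied more between libraries, with 2.16%, 1.88% and 1.49% in CD34hi and 2.28%, 2.11% and 3.12% in CD34lo. The share on the 86 genes outside of them was 1.35 ± 0.0885% in CD34hi and 1.11 ± 0.0328% in CD34lo (SD, n = 3), so the ratio was 1.22 without the mitochondrially encoded genes, an alternative chosen after the data were seen.

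**Figure D1:**
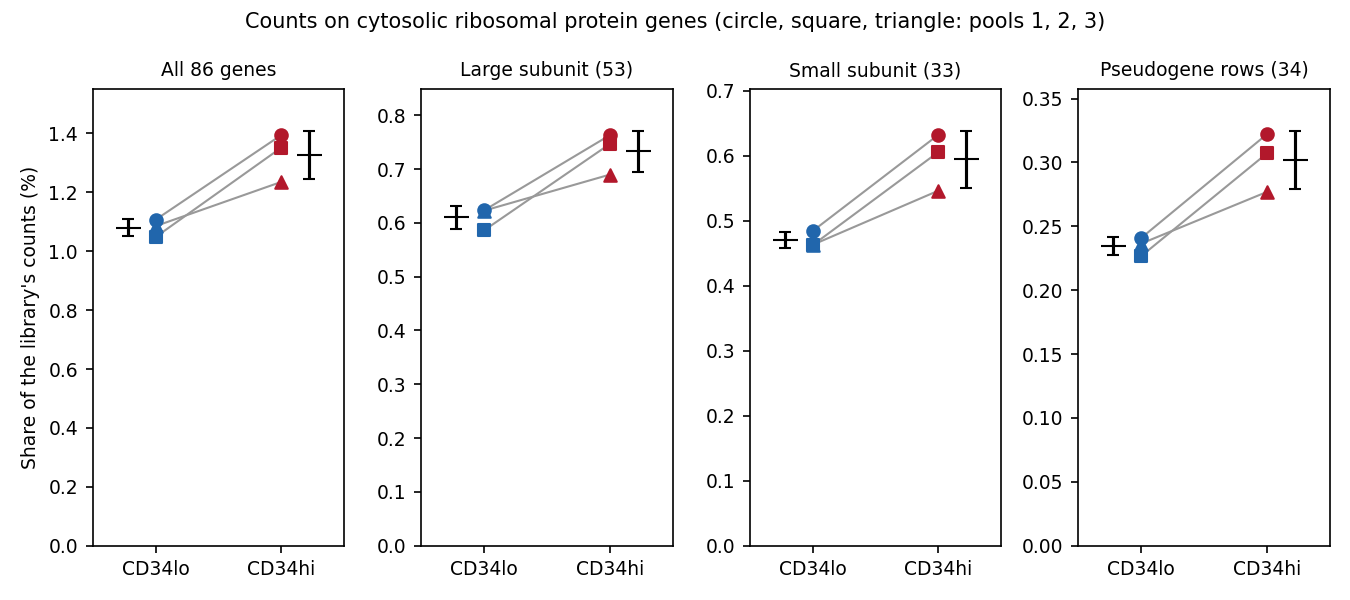
Share of each library's counts (%) on the 86 cytosolic ribosomal protein genes, the 53 large subunit genes, the 33 small subunit genes and the 34 pseudogene rows, by population. Symbols are libraries, lines join the populations of one pool, and black marks are the mean ± SD (n = 3). All lines rise from CD34lo to CD34hi, least steeply in pool 3.

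Gene by gene the shift was small, and the genes past the threshold were all higher in CD34hi. Of the 86 genes, 84 passed the filter on low counts and were tested with the quasi-likelihood test of edgeR, in which p-values were adjusted by Benjamini and Hochberg's method over all 15219 genes tested and called at 0.05. In CD34hi 33 of the 84 (39.3%) were higher, while 16.9% of all genes tested were higher. In CD34lo 0 were higher, while 18.7% of all genes tested were. At an unadjusted p under 0.05 edgeR had 47 higher in CD34hi, against 22% of all genes tested, and 0 lower, against 23.5%. At an adjusted p under 0.05, limma-voom and DESeq2 had 0 of the 84 higher in CD34lo, against 18.8% and 20% of all genes they tested. Taking the mouse pool as a block gave 36 genes higher (against 19.6% of all genes) and 0 lower (against 20.9%). It kept all 33 and added Rpl11, Rpl13 and Rps14.

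The size of the shift was modest beside that of other genes. The median log2 fold change over the 84 genes was 0.32, or 1.25-fold, and the middle 50% lay between 0.15 and 0.43. Over all genes tested the median was -0.0064 and the middle 50% lay between -0.46 and 0.36. The standard deviation was 0.20 over the 84 genes and 1.27 over all genes tested. No ribosomal protein gene, 0 of 84, changed by 1 or more on the log2 scale, whereas 22.6% of all genes did. Of the 84, 77 had a positive value and 7 a negative one.

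**Figure D2:**
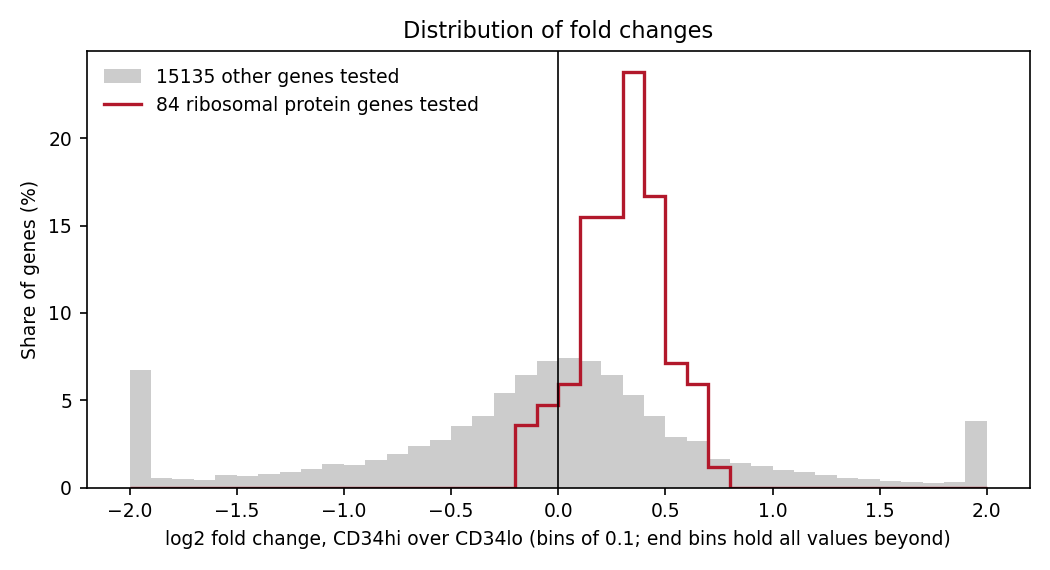
Distribution of the log2 fold change between CD34hi and CD34lo fibroblasts over the 84 ribosomal protein genes tested (red line) and all other genes tested (grey), as the share of genes (%) per bin of 0.1. The ribosomal protein genes form a narrow peak to the right of 0, with a median of 0.32.

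The pools gave the same picture with different strength. Within pools, the median log2 difference over the 84 genes was 0.36 in pool 1, 0.33 in pool 2 and 0.23 in pool 3, and 76, 77 and 66 genes were higher in CD34hi. Over all genes tested the medians were between -0.0096 and 0.0071. In all 3 pools 62 genes (73.8%) were higher in CD34hi, against 32.7% of all genes tested, and 3 were higher in CD34lo in every pool, against 32.9%. For 54 genes (64.3%) every CD34hi library was above every CD34lo library, against 24.8% of all genes. The number of genes past the threshold depended on single pools. It was 9 of 84 (10.7%) without pool 1 and 6 (7.14%) without pool 2, where 10.7% and 10.6% of all genes tested were higher in CD34hi, so in these fits the ribosomal protein genes passed the threshold no more often than other genes. It was 34 (40.5%) without pool 3, against 14.9% of all genes. It was 14 (16.7%) without the CD34hi library of pool 1, against 13.7%, 12 (14.3%) without that of pool 2, against 11.8%, and 21 (25%) without the CD34lo library of pool 3, against 14.7%. Their median log2 fold change lay between 0.31 and 0.35 in these 6 fits, and 0 genes were higher in CD34lo in each, against between 12.3% and 16.6% of all genes.

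Large subunit genes gave 15 higher of 51 tested (29.4%, against 16.9% of all genes tested), with a median log2 fold change of 0.28 and 46 positive values. Rpl21 had the largest value of all. It was at 63.8, 60.0 and 53.8 CPM in CD34hi and at 35.6, 34.9 and 36.7 CPM in CD34lo, so the groups did not overlap. The log2 fold change was 0.73 ± 0.11 (SE), or 1.66-fold (edgeR adjusted p = 0.00101). Rpl35, which lies close to the exit of the peptide tunnel, was at 60.0, 63.6 and 56.3 CPM in CD34hi and at 40.8, 38.2 and 39.9 in CD34lo. The libraries of the populations were well apart, with a log2 fold change of 0.60 ± 0.10 (adjusted p = 0.00224). Rpl32 was at 177, 169 and 170 CPM in CD34hi and at 115, 117 and 115 in CD34lo. The libraries within a population lay close together. Its log2 fold change was 0.57 ± 0.10 (adjusted p = 0.00241).

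Rpl5 and Rpl11 bind the same small ribosomal RNA and, when free, the p53 ligase Mdm2. Rpl5 was at 99.3, 93.4 and 90.3 CPM in CD34hi and at 61.6, 66.3 and 65.7 in CD34lo, without overlap, with a log2 fold change of 0.55 ± 0.10 (edgeR adjusted p = 0.00317). Rpl11 was at 37.5, 33.6 and 32.7 CPM in CD34hi and at 30.1, 26.6 and 26.7 in CD34lo, also without overlap, and its log2 fold change of 0.31 ± 0.12 did not pass the test (adjusted p = 0.0654, and 0.0481 with the pool as a block). Rpl26, which can bind p53 mRNA, was at 53.8, 47.8 and 48.6 CPM in CD34hi and at 33.7, 32.7 and 37.6 in CD34lo, with a log2 fold change of 0.53 ± 0.11 (adjusted p = 0.0061). For all 3 genes every CD34hi library was above every CD34lo library.

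The stalk of the large subunit recruits the elongation factors and is made of the products of Rplp0, Rplp1 and Rplp2. Rplp1 was at 532, 530 and 491 CPM in CD34hi and at 412, 394 and 382 in CD34lo, and rose by 0.39 ± 0.12 on the log2 scale (edgeR adjusted p = 0.0311). Rplp0 was at 1001, 1026 and 982 CPM in CD34hi and at 794, 828 and 769 in CD34lo. Its libraries did not overlap either, and its log2 fold change of 0.33 ± 0.12 missed the threshold (adjusted p = 0.063). Rplp2 was at 35.2, 31.5 and 28.1 CPM in CD34hi and at 28.4, 28.1 and 29.0 in CD34lo, with overlap and a log2 fold change of 0.15 ± 0.12 (adjusted p = 0.369). Whether these 3 differ from each other was not tested.

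Small subunit genes gave 18 higher of 33 tested (54.5%, against 16.9% of all genes tested), with a median log2 fold change of 0.39 and 31 positive values. Rps6, the substrate of the S6 kinases downstream of mTOR, was at 130, 135 and 132 CPM in CD34hi and at 84.3, 83.0 and 94.8 in CD34lo. The groups were far apart, with a log2 fold change of 0.60 ± 0.11, or 1.52-fold (edgeR adjusted p = 0.00249). Rps12 was at 44.2, 40.3 and 42.3 CPM in CD34hi and at 26.1, 27.1 and 29.8 in CD34lo, with a log2 fold change of 0.61 ± 0.11 (adjusted p = 0.00264). Rps15a was at 171, 159 and 163 CPM in CD34hi and at 106, 108 and 111 in CD34lo, with a log2 fold change of 0.60 ± 0.10 (adjusted p = 0.00199). In both, the lowest CD34hi library was clearly above the highest CD34lo library.

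Rps24 was at 283, 270 and 243 CPM in CD34hi and at 184, 176 and 179 in CD34lo, with a log2 fold change of 0.56 ± 0.11 (edgeR adjusted p = 0.00504). Rps29 followed at 0.51 ± 0.11 (adjusted p = 0.00624), Rps10 at 0.49 ± 0.11 (adjusted p = 0.01) and Rps19 at 0.42 ± 0.11 (adjusted p = 0.014). The smallest log2 fold change past the threshold was that of Rps28, at 0.37 ± 0.11 or 1.29-fold (adjusted p = 0.0331). Rpsa, the laminin receptor, which sits on the small subunit, was at 383, 396 and 352 CPM in CD34hi and at 314, 326 and 303 in CD34lo. Its libraries did not overlap, and its log2 fold change of 0.26 ± 0.12 did not pass the test (adjusted p = 0.114).

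**Figure D3:**
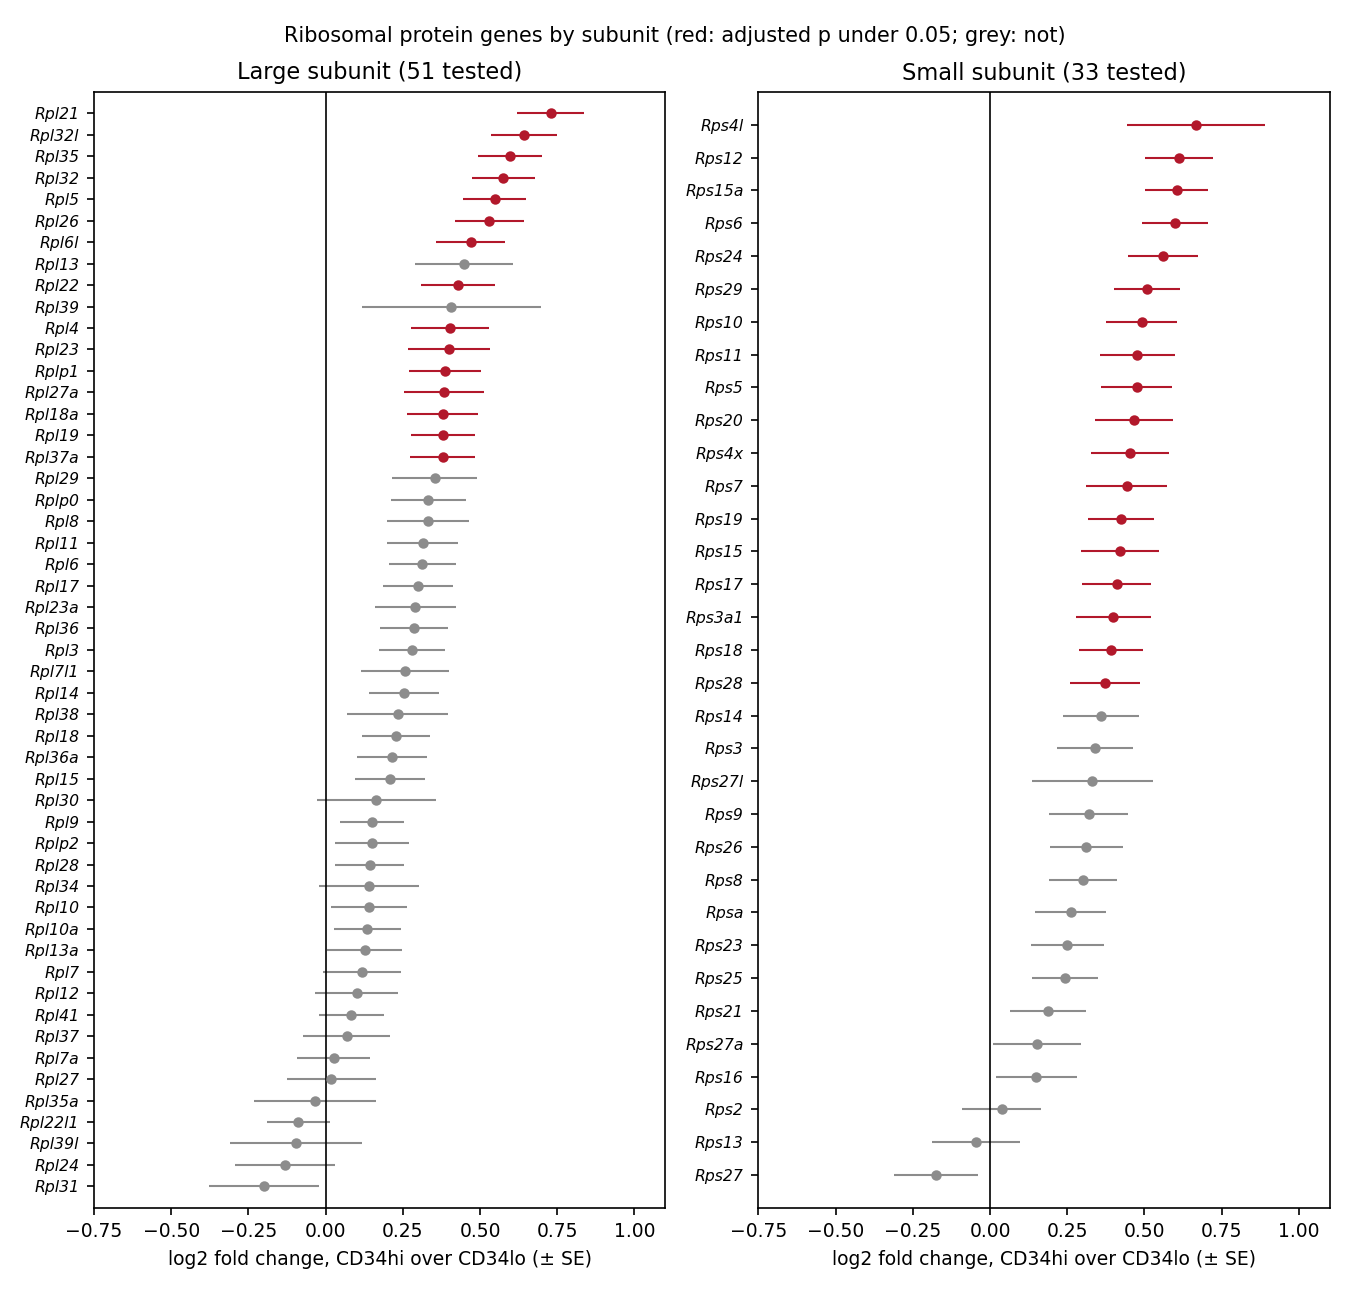
Log2 fold change between CD34hi and CD34lo fibroblasts (± SE) of the 84 ribosomal protein genes tested, by subunit and in order. Red points passed the test at an adjusted p under 0.05 and grey points did not. All red points lie right of 0, from 0.37 for Rps28 to 0.73 for Rpl21.

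The 7 genes with negative values were Rpl31 (-0.20), Rps27 (-0.18), Rpl24 (-0.13), Rpl39l (-0.10), Rpl22l1 (-0.09), Rps13 (-0.04) and Rpl35a (-0.03) on the log2 scale, none of which passed edgeR's test. Rpl31 was at 9.12, 9.16 and 8.98 CPM in CD34hi and at 11.2, 7.91 and 12.2 in CD34lo, where the libraries surrounded those of CD34hi (adjusted p = 0.421). Rps27 was at 15.9, 13.8 and 12.6 CPM in CD34hi and at 16.0, 14.8 and 16.9 in CD34lo, with overlap (adjusted p = 0.355). Rpl24 was at 7.96, 8.20 and 8.07 CPM in CD34hi and at 7.41, 8.88 and 10.3 in CD34lo (adjusted p = 0.565). Rps13 was at 6.66, 6.98 and 6.75 CPM in CD34hi and at 7.16, 7.12 and 6.75 in CD34lo (adjusted p = 0.836). Next above these came Rpl27, with a log2 fold change of 0.02 ± 0.14 (adjusted p = 0.935), whose sign changed with the scaling.

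For several ribosomal protein genes most of the family's counts lay on copies. Among the genes counted, 39 rows were named as copies of 19 of the genes, and in 13 of these families the copies held over 50% of the counts. The share on copies was 97.4% for Rpl31, 96.2% for Rpl34, 95.9% for Rps27a, 94.1% for Rps27, 93.9% for Rps13 and 90.5% for Rpl37. For Rps27, a single copy without introns, Rps27rt, held 57505 counts over the 6 libraries, and Rps27 itself held 3586. Of the 30 pseudogene rows tested, 29 had positive values, 14 were higher in CD34hi and 0 in CD34lo by edgeR's test, against 16.9% and 18.7% of all genes tested, and the median log2 fold change was 0.40.

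Adding the copies to their parents, an alternative chosen after the data were seen, turned the negative values of Rpl31, Rps27 and Rps13 positive. The 4 genes that stayed negative were Rpl24, Rpl39l, Rpl22l1 and Rpl35a. Rpl31 went from a log2 fold change of -0.20 to 0.13 (edgeR adjusted p = 0.51), Rps27 from -0.18 to 0.15 (adjusted p = 0.336) and Rps13 from -0.04 to 0.30 (adjusted p = 0.0974). After summing, 81 genes were tested, 77 were positive, 36 were higher in CD34hi (44.4%, against 16.9% of all genes in that fit) and 0 in CD34lo. The median log2 fold change was 0.33, and the standard deviation over the genes was 0.18. The 6 genes that then passed the test were Rpl34 (0.39, adjusted p = 0.0238), Rps27a (0.38, adjusted p = 0.0391), Rpl17 (0.44, adjusted p = 0.0183), Rpl13 (0.54, adjusted p = 0.0188), Rpl36 (0.39, adjusted p = 0.0248) and Rpl6 (0.38, adjusted p = 0.0314). Copies listed without a parent's name could not be assigned to a parent and were not added.

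**Figure D4:**
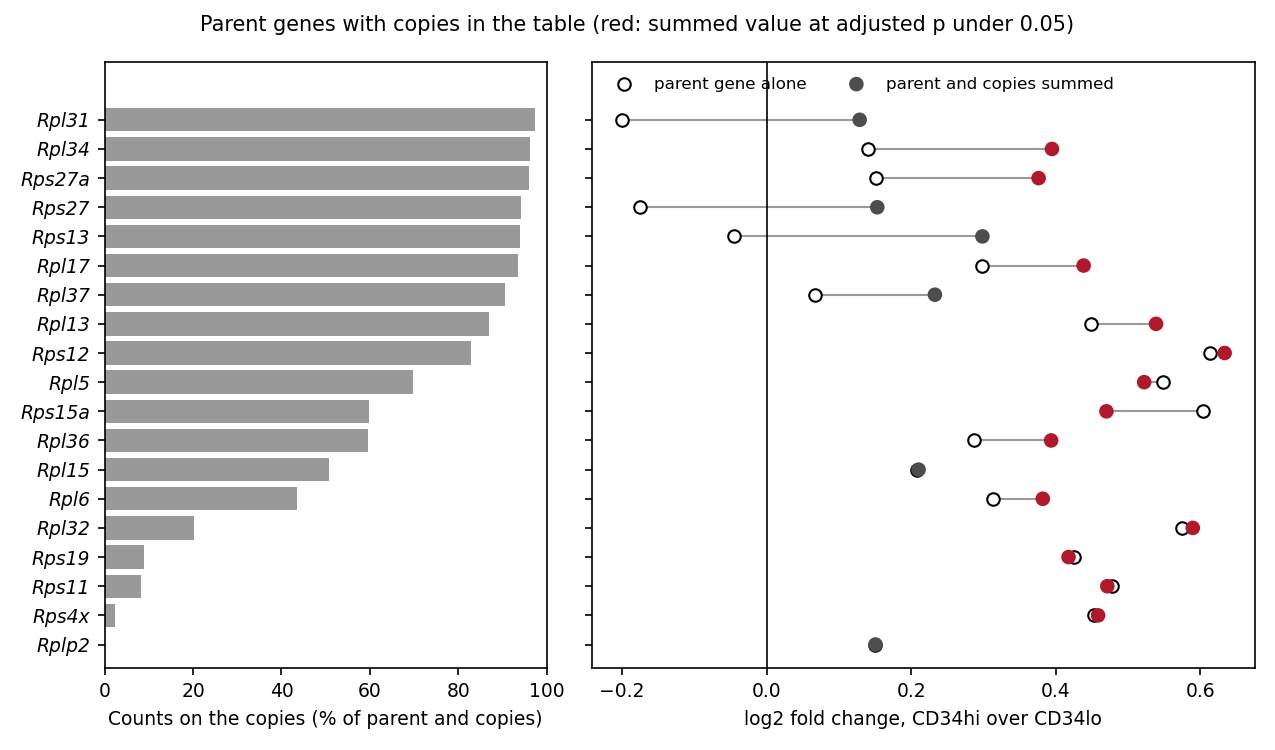
Left, counts on the named copies as a share (%) of the counts on a parent gene and its copies, for 19 parent genes. Right, log2 fold change between CD34hi and CD34lo fibroblasts of the parent alone (open circles) and with its copies summed (filled circles, red at an adjusted p under 0.05). The 3 parents left of 0, Rpl31, Rps27 and Rps13, lie right of 0 once summed.

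Other rows overlapped 36 of the 86 genes in the genome, and in 5 cases the overlapping row held more than 10% of the gene's own counts. These were Rps4l with Tmtc1, Rpl31 with Tbc1d8, Rpl32l with Map7, Rpl5 with Dipk1a, and Rps13 with the small nucleolar RNA Snord14a. Among genes higher in CD34hi, Rps4l was at 6.62, 7.01 and 9.24 CPM in CD34hi and at 5.85, 3.63 and 4.85 in CD34lo, with a log2 fold change of 0.67 ± 0.22 (edgeR adjusted p = 0.0466). Rpl32l was at 45.7, 42.3 and 44.6 CPM in CD34hi and at 28.3, 29.9 and 26.7 in CD34lo (0.64 ± 0.11, adjusted p = 0.00173). The library kit does not mark the strand, so reads of overlapping genes cannot be told apart, and Rps4l and Rpl32l also share sequence with Rps4x and Rpl32.

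Some ribosomal protein genes have a paralog of similar name, which for some can take the place of the parent's protein. Of 7 pairs 5 could be compared, among them Rps4x with Rps4l, which RefSeq annotates as a pseudogene, as the log2 ratio of the paralog's to the parent's counts per library. Rpl22l1, whose level Rpl22 is known to restrain, was at 34.4, 35.0 and 34.3 CPM in CD34hi and at 35.7, 35.6 and 39.0 in CD34lo. Its CD34lo libraries were all above its CD34hi libraries, but it did not pass the test (log2 fold change -0.09 ± 0.10, edgeR adjusted p = 0.549). Rpl22 was higher in CD34hi, at 234, 224 and 190 CPM in CD34hi and 158, 162 and 162 in CD34lo (0.43 ± 0.12, adjusted p = 0.0228). The log2 ratio of Rpl22l1 to Rpl22 was therefore lower in CD34hi by 0.51, with differences of -0.62, -0.49 and -0.42 in the 3 pools. Its exact permutation p was 0.1, the smallest possible, and 0.167 after adjustment over the 5 pairs.

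Rps27l, a p53 target, was at 35.3, 35.6 and 22.6 CPM in CD34hi and at 28.4, 24.7 and 21.0 in CD34lo, with overlap (log2 fold change 0.33 ± 0.20, edgeR adjusted p = 0.223). Its ratio to Rps27 was higher in CD34hi by 0.49 on the log2 scale, with pool differences of 0.33, 0.62 and 0.53 (exact permutation p = 0.1, adjusted 0.167). It was higher by 0.34 without the CD34lo library of pool 3, and the Rps27 counts in it are those left beside Rps27rt. With Rps27rt summed into Rps27, the log2 fold changes lay closer together, at 0.33 for Rps27l and 0.15 for Rps27, which was at -0.18 on its own row. For Rpl39l and Rpl39 the ratio differed by -0.48, with pool differences of -0.77, -0.60 and -0.06 (exact permutation p = 0.1, adjusted 0.167). Counts in this pair were low, between 113 and 213 for Rpl39l and between 41 and 121 for Rpl39. The last 2 ratios had no common direction over the pools. That of Rpl7l1 to Rpl7 differed by 0.14, with pool differences of -0.17, 0.36 and 0.23 (exact permutation p = 0.4, adjusted 0.5), and fell to 0.03 without pool 2 and rose to 0.29 without pool 1. That of Rps4l to Rps4x differed by 0.24, with pool differences of -0.46, 0.56 and 0.62 (exact permutation p = 0.5, adjusted 0.5), and lay between 0.0033 (without the CD34hi library of pool 3) and 0.59 (without pool 1). The tissue-restricted paralogs were near 0 and untested: Rpl3l of muscle had 1, 2 and 1 counts in CD34hi and 2, 9 and 6 in CD34lo, and Rpl10l of testis had 3, 1 and 10 counts and 0, 1 and 0.

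Levels per length on the genes' own rows differed far more between the genes than between the populations. The median RPKM (CPM per kilobase of gene length) of the genes tested stood at the 96.0th percentile of all genes tested, and 64 of 84 were among the top 10%. Rplp1 was highest, at 1106 ± 49.8 RPKM in CD34hi and 847 ± 31.6 in CD34lo (SD, n = 3). Rps15 followed at 944 ± 94.9 and 705 ± 21.9. Rps20 at 743 ± 63.8, Rplp0 at 738 ± 16.2 and Rpl4 at 729 ± 49.2 RPKM in CD34hi did not differ beyond their spread. The lowest tested were Rpl39 at 5.61 ± 1.25 and Rpl39l at 5.37 ± 0.369 RPKM in CD34hi, then Rps4l, Rpl35a and Rpl31, all under 10 RPKM in both populations. For Rpl31 this is the level of the parent row alone, beside copies with 97.4% of the family's counts. The same limit holds for other parents, such as Rpl34, Rps27a and Rps27, with 96.2%, 95.9% and 94.1% on copies. What part of the range between rows comes from copies was not tested.

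The genes are short, with a median length of 706.5 bases against 2747 over all genes tested. The 1501 other tested genes of at most 1000 bases had a median log2 fold change of 0.09, with 13.3% higher in CD34hi and 10.3% in CD34lo. Among the ribosomal protein genes the log2 fold change was weakly related to log2 length (Pearson's r = 0.14), to log2 RPKM (r = 0.29) and to GC content (r = 0.12, 83 genes). These are descriptions across genes that share libraries and copies.

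Other letters in the promoters of the 64 genes were searched on both strands, from 250 bases before the start to 50 after it, as 4 motifs that do not contain each other. CCGGAAG, the core of an ETS or GABP site, was in 26 of 64 (40.6%), against 9.93% of all genes. GGGCGG, the core of an Sp1 site, was in 39 (60.9%) against 38.2%, AAGATGGC, from the site of Yy1, in 6 (9.38%) against 3.19%, and TATAAA in 8 (12.5%) against 15.7%. The median log2 fold change was 0.31 with CCGGAAG and 0.26 without it, and 0.22 with GGGCGG and 0.39 without it. A match describes the letters in the window and not a bound site.

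In the other lists of protein synthesis, counts stand against the 16.9% of all genes tested that were higher in CD34hi and the 18.7% that were higher in CD34lo. Of 4 ribosomal protein genes tested outside the symbol rule, 1 was higher in CD34hi and 0 in CD34lo by edgeR, all 4 values were positive, and the median log2 fold change was 0.22. Rack1, the signalling scaffold on the small subunit, was at 407, 402 and 377 CPM in CD34hi and at 317, 301 and 306 in CD34lo, with a log2 fold change of 0.36 ± 0.11 (edgeR adjusted p = 0.0355). Rps27a, whose protein is made as a fusion to ubiquitin, had a value of 0.15 ± 0.14 (adjusted p = 0.445) on its own row. Fau, which fuses a ubiquitin-like protein to a small subunit protein, was at 62.3, 60.9 and 60.0 CPM in CD34hi and at 62.8, 57.0 and 58.7 in CD34lo, with overlap (0.04 ± 0.10, adjusted p = 0.80).

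Among translation factors, the elongation genes had a median close to that of the ribosomal protein genes. Of 8 elongation genes 2 were higher in CD34hi and 0 in CD34lo, with a median log2 fold change of 0.30. Eef1b2, the exchange factor for Eef1a1, was at 449, 447 and 447 CPM in CD34hi and at 320, 280 and 333 in CD34lo (0.53 ± 0.12, edgeR adjusted p = 0.00937), and Eef2k, the kinase that inhibits Eef2, rose by 0.63 ± 0.16 (adjusted p = 0.0131). Of 22 initiation genes (eIF3 subunits, poly(A)-binding proteins and eIF4 factors), 4 were higher in CD34hi and 1 in CD34lo, with a median of 0.11. The 4 were Eif3e (0.53), Eif3d (0.51), Eif3f (0.45) and Eif4b (0.45), and the 1 was the helicase Eif4a2 (-0.47, adjusted p = 0.0183).

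Other genes whose RNAs are known to carry a TOP tract, and that are not in the lists above, were counted as well. Elongation genes (median 0.30), initiation genes (median 0.11) and Rack1 (0.36) were counted in their own lists, whether or not their RNAs carry the tract. The genes counted here thus do not stand for all TOP mRNAs outside the ribosomal proteins. Of 9 tested, 0 were higher in CD34hi (edgeR) and 2 in CD34lo, with a median log2 fold change of -0.07. Those 2 are hosts of small nucleolar RNAs that make no protein. Gas5 was at 120, 125 and 118 CPM in CD34hi and at 166, 165 and 165 in CD34lo (-0.45 ± 0.10, adjusted p = 0.00841), and Snhg1 was at 28.5, 25.7 and 18.6 CPM in CD34hi and at 55.6, 55.6 and 51.3 in CD34lo (-1.16 ± 0.16, adjusted p = 0.000671). Both were in the opposite order to Rps6 and Rpl32 in every pool.

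Few genes of the machinery that makes ribosomes passed the test. Of 45 ribosome biogenesis factors 3 were higher in CD34hi and 1 in CD34lo, with a median of 0.15. With the pool as a block 5 were higher in each, against 19.6% (CD34hi) and 20.9% (CD34lo) of all genes tested. Ltv1, which matures the small subunit, rose by 0.49 ± 0.15 on the log2 scale (edgeR adjusted p = 0.0303), and Nop58, a core protein of small nucleolar particles, was lower by a log2 fold change of -0.74 ± 0.16 (adjusted p = 0.00676). Of 14 genes of RNA polymerase I and its factors, 0 were higher in CD34hi and 1, Taf1d, in CD34lo, with a median of 0.07. With the block 2 were higher in CD34lo, against 20.9% of all genes tested. Of 77 mitochondrial ribosomal protein genes, which build a separate ribosome, 5 were higher in CD34hi and 2 in CD34lo, with a median of 0.10. Their share of the counts was 0.0830 ± 0.00414% in CD34hi and 0.0791 ± 0.00703% in CD34lo (SD, n = 3, exact permutation p = 0.6).

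Among 25 regulators around mTOR, Larp1 and Myc, 6 were higher in CD34lo (edgeR), a share close to the 18.7% of all genes tested, and 0 were higher in CD34hi, against 16.9%. Their median log2 fold change was -0.12. With the pool as a block 8 were higher in CD34lo, against 20.9% of all genes tested, and 1 in CD34hi, against 19.6%. Ddit4, a stress-induced inhibitor of mTOR, was at 17.3, 11.6 and 14.5 CPM in CD34hi and at 93.5, 77.0 and 79.4 in CD34lo, a log2 fold change of -2.52 ± 0.17 (adjusted p = 1.31e-05). Mycn was at 0.872, 1.02 and 0.551 CPM in CD34hi and at 4.72, 4.03 and 4.47 in CD34lo (-2.44 ± 0.28, adjusted p = 0.000215). Deptor, which binds and inhibits mTOR, was at 3.60, 2.93 and 6.24 CPM in CD34hi and at 10.0, 22.3 and 17.3 in CD34lo (-1.95 ± 0.35, adjusted p = 0.00276). The groups were apart for all 3. Also higher in CD34lo were Mxd1 (-0.97 ± 0.12, adjusted p = 0.000285), the S6 kinase gene Rps6kb2 (-0.85 ± 0.14, adjusted p = 0.00195) and Sesn3 (-0.71 ± 0.13, adjusted p = 0.003). Mtor (-0.19 ± 0.14, adjusted p = 0.318), Larp1 (0.21 ± 0.14, adjusted p = 0.283) and Myc (-0.06 ± 0.24, adjusted p = 0.867) did not pass the test. Ddit4 can also be induced by cell handling, and the dissociation genes above were higher in the same libraries. Their part in this difference was not tested.

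**Figure D5:**
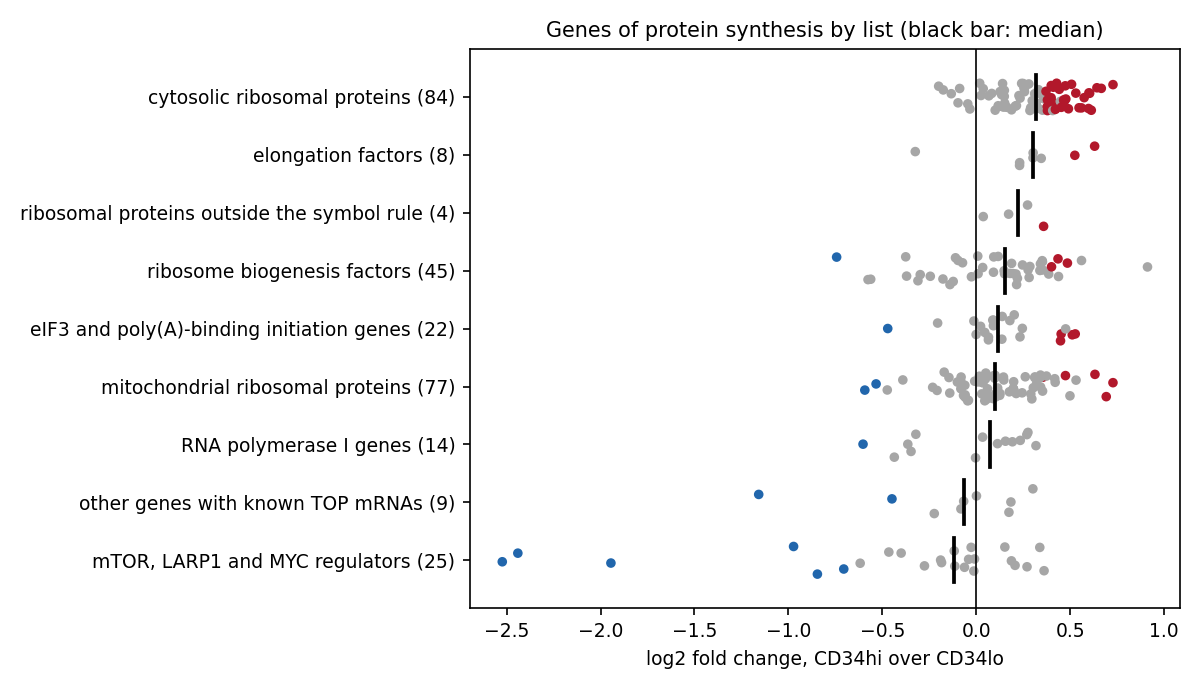
Log2 fold change between CD34hi and CD34lo fibroblasts for the ribosomal protein genes and 8 other lists of protein synthesis, with the number of genes tested in parentheses. Points are genes, red where higher in CD34hi and blue where higher in CD34lo at an adjusted p under 0.05, and black bars are medians. The median runs from 0.32 for the ribosomal protein genes to -0.12 for the mTOR, Larp1 and Myc regulators.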

How the data were processed

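RNA of 6 sorted libraries was sequenced from TruSeq RNA v2 libraries, which do not mark the strand. Per the paper's methods, the authors aligned reads to the mouse genome (GRCm38 per the labels) and counted them on genes with Rsubread. The deposited values are whole counts per gene, not normalized and not filtered. How reads that map to several places were counted is not given in the sources used here. Symbols came from a reference gene table (25275 of 27179 identifiers matched).

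The analysis ran edgeR 4.0.16 under R 4.3.3, with filterByExpr by population, TMM factors (0.967 to 1.04), the quasi-likelihood test without a block, and Benjamini-Hochberg adjustment over all genes tested. CPM used TMM-scaled totals, RPKM also the listed gene length, and log2 differences within pools a prior count of 2. The test was checked on simulated counts. Populations with the same number came from the same pool of mice, and their deviations correlated at 0.28, 0.08 and 0.24 (Pearson's r over 15219 genes). Libraries of 1 population differed by more than sampling noise.

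Members and lists were chosen with earlier results of these data known. Members named were those of paralog pairs, of the 8 largest and 8 smallest log2 fold changes, of the 8 smallest adjusted p-values, of the 5 highest and 5 lowest RPKM, of special roles, or untested. Genes added for copies, overlaps, sequences, the block and the full set of mTOR, Larp1 and Myc regulators called were named after their values were seen. Alternatives used limma-voom 3.58.1, DESeq2 1.42.0, other scalings and filters, the replicate block, summed copies and left-out libraries. No protein sequences were used, and 1 gene of the lists is not reported here. Printed errors are the spread over libraries (SD) or the standard error of the fit (SE).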

Additional observations from a re-analysis of the deposited data

How the results depend on the processing

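The median log2 fold change over the ribosomal protein genes stayed positive under every alternative, from 0.26 with upper-quartile scaling to 0.38 without the CD34hi library of pool 3, and the number higher in CD34lo stayed at 0. The number higher in CD34hi, with the share of all genes in the same fit, was 25 with upper-quartile scaling (15%), 26 with library totals (15.1%), 30 with at least 10 counts in every library (16.8%), 34 without a filter (12.9%), 37 with limma-voom (17.6%), 40 with DESeq2 (18.2%), 36 with the replicate block in edgeR (19.6%), 42 with it in limma-voom (20.3%) and 38 with pseudogene rows summed (16.9%). Of all genes, between 12.3% and 21.9% were higher in CD34lo in these and the left-out fits. Leaving out a pool or a library gave between 6 (without pool 2) and 39 (without the CD34hi library of pool 3, with 15.9% of all genes), and all genes called fell from 5411 to between 3468 (without pool 1) and 5236. Such fits hold fewer samples, and without pool 1 or 2 the share of ribosomal protein genes called (10.7% and 7.14%) did not exceed that of all genes (10.7% and 10.6%). The difference in the share of counts was between 0.21 and 0.30 percentage points when a pool or library was left out, and 0.247 as the mean of the paired differences within pools. The Rps27l to Rps27 log2 ratio differed by between 0.34 (without the CD34lo library of pool 3) and 0.63 (without the CD34hi library of pool 3), and the cause was not tested.

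Over 54 members followed one by one, 1236 values under alternatives held 1080 on the same side of the threshold with the same sign, 83 that lost and 50 that gained significance, and 23 that changed sign, all in members that did not pass the test. Rpl27 was -0.033 with upper-quartile scaling, -0.028 with library totals, and between -0.054 and 0.16 with a library left out. With pseudogene rows, or all copies, summed into the parent, Rpl31 was 0.13 (0.13 with the replicate block) and Rps13 0.30 (0.30 with the block). With all copies summed, Rps27 was 0.15 (0.15 with the block). In these cases the summed rows hold most of the counts. With libraries or pools left out, Rpl35a ranged from -0.22 to 0.13, Rpl39l from -0.19 to 0.12, Rps13 from -0.068 to 0.010 and Rpl37 from -0.076 to 0.22. The replicate block added Rpl11, Rpl13 and Rps14 to the genes higher in CD34hi.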
